A study of Sus scrofa with 12 samples.

Results

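The antisense lncRNAs described here are long non-coding transcripts that were assembled from pig testis RNA and run opposite to an annotated gene with which their exons overlap. They are the assembled lncRNA transcripts with class code x, the code for exonic overlap on the opposite strand, and were matched to the expression table by transcript identifier. There were 288 of them in 235 loci, of 1424 assembled lncRNAs and 10706 lncRNA transcripts in all, and each of the 288 had a row of values. The testes came from Hezuo (HZ) boars and Landrace (LC) boars, castrated at 30 or 120 days of age, with no treatment. The groups were HZ at 30 days (Ha), HZ at 120 days (Hb), LC at 30 days (La) and LC at 120 days (Lb), with 3 boars and so 3 libraries in each. Breed, and whatever else differed between the animals of each breed, cannot be told apart, and each library was made from a whole piece of testis holding many cell types.

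Where an antisense lncRNA overlaps the gene on the facing DNA strand, its transcription or the RNA itself can act on that gene, for example through colliding polymerases, chromatin marks, masking of splice sites or pairing of the RNAs, while many antisense transcripts have no known effect. The testis transcribes more of the genome than most tissues, above all in meiotic and post-meiotic germ cells, and many lncRNAs are known mainly from there. In young boars the seminiferous cords hold Sertoli cells and early germ cells, and boars near puberty form spermatocytes and spermatids.

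The libraries held 17165519 (Hb3) to 23758931 (Ha1) estimated counts over mRNAs and 496269 (La3) to 767783 (Hb2) over lncRNAs. The testis identity was checked with marker genes. The Sertoli cell gene SOX9, the Leydig cell gene INSL3 and the germ cell gene DDX4 were detected in all 12 libraries, and the protamine gene PRM1, which packs DNA in spermatids, had FPKM values (fragments relative to transcript length and library depth) of 2.11 to 6.78 at 30 days and 2147 to 5433 at 120 days. The libraries were made so that the RNA strand is kept, but whether the counting used the strand is not given in the sources used here, so reads of a gene and of its antisense partner may have been mixed in part. Of the 63 lncRNA and gene pairs whose gene had an FPKM of at least 10 in all 6 libraries at 30 days, 24 had an antisense lncRNA with no count in any of those 6 libraries, and of the 152 pairs whose gene reached an FPKM of 1, 48 did.

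The 288 transcripts had a median of 3 exons (2 to 14) and a median length of 1034.5 bases (220 to 29335) over a median span of 8022 bases. There were 123 with 2 exons. Autosomes held nearly all of them, with the most on chromosomes 1 and 6 (31 each), 4 (26) and 3 (25). The X and Y chromosomes had 1 each, and 8 lay on unplaced sequence. Transcripts numbered 131 on the plus and 157 on the minus strand. A locus had 1 antisense transcript in 198 cases and up to 5 in the other 37, and estimated counts of transcripts that share exons depend on how reads were divided between them.

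The facing gene was named from the gene positions of Sscrofa11.1, the build of the assembly. For 239 of the 288 transcripts it was a gene of the mRNA table, 200 genes in all. Another 26 had exons over annotated genes without values in that table only, 15 had exons over no gene position used here, and the 8 on unplaced sequence were not placed. Of the 239, 197 overlapped that gene and no other, and 42 overlapped several. Among the 197, 89 lay inside the gene, 71 were head to head (overlapping its start) and 37 tail to tail (overlapping its end). Overlap within the gene's span was shortest for the head-to-head transcripts (median 260 bases, against 881 inside and 685 tail to tail), and the head-to-head transcripts began at a median of 505 bases from the gene's outer end. The gene positions carry no strand, so these arrangements rest on the class code, which places the gene on the opposite strand. For the 42 over several genes the class code does not tell which gene that is. The facing gene named for them is the one with most overlap.

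Most antisense lncRNAs were hardly detected at 30 days and well detected at 120 days. With at least 10 estimated counts, 61, 62 and 62 of the 288 were found in the Ha libraries, 60, 52 and 53 in La, 221, 236 and 231 in Hb and 216, 227 and 220 in Lb. Every library at 120 days was above every library at 30 days. At 30 days 103 of the 288 had no count in any of the 6 libraries, and at 120 days this held for 0 of the 288. There were 36 with no count at 30 days and at least 10 in each of the 6 libraries at 120 days, and 0 with the reverse pattern. The median over the 288 of the mean FPKM was 0.0125 at 30 days and 1.42 at 120 days. The share with at least 10 counts was 18.1 to 21.5% over the libraries at 30 days and 75.0 to 81.9% over those at 120 days. For the 560 intergenic assembled lncRNAs (class code u) it was 15.9 to 20.7% and 69.5 to 77.0%, and for the 9282 known lncRNAs 16.7 to 19.1% and 19.4 to 22.8%. For the 83 assembled lncRNAs with other same-strand overlap (class code o) it was 44.6 to 54.2% and 62.7 to 79.5%. The transcripts were assembled from these same libraries, so a transcript had to be read in some of them to be listed. Because the samples are bulk tissue, fewer cells of a type and less RNA per cell cannot be told apart.

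MSTRG.2345.1 went against this pattern and had more counts than any other antisense lncRNA. It is a transcript of 3 exons and 7705 bases (chromosome 2, 6748961 to 6758836, minus strand) facing the annotated lncRNA gene LOC102163816 (6749941 to 6794116). Its FPKM values were 358, 395 and 336 in Ha, 446, 397 and 279.8 in La, 119.7, 187 and 108 in Hb, and 106, 88.0 and 169 in Lb. All 6 values at 30 days were above all 6 at 120 days, and by edgeR's quasi-likelihood test the log2 fold change in Ha vs Hb was −1.58 ± 0.34 (adjusted p = 0.00555). Likewise the log2 fold change in La vs Lb was −1.90 ± 0.28 (adjusted p = 0.000723). Scaled by the mRNA table the fall in Ha vs Hb was 0.92 on the log2 scale and no longer past the threshold. At 30 days MSTRG.2345.1 took 91.2 to 92.5% of the antisense counts of a library and at 120 days 33.9 to 51.2%. The remaining antisense lncRNAs together took 1.21 to 1.46% of all lncRNA counts at 30 days and 5.64 to 6.43% at 120 days.

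To ask which antisense lncRNAs differ with age, the younger and older boars were compared within each breed. A transcript was called when its adjusted p was below 0.05 and its log2 fold change lay beyond 1 in either direction, and fold changes are 120 over 30 days. In Ha vs Hb, 197 of the 288 passed the filter on low counts, of which 163 were called higher and 15 lower at 120 days (178 in all), against 56.2% of the 2909 lncRNAs tested (38.6% higher and 17.6% lower). In La vs Lb, 198 passed, of which 162 were called higher and 21 lower (183 in all), against 61.1% of 2988 (41.8% higher and 19.3% lower). The filter shaped these counts. In Ha vs Hb 130 of the 197 had fewer than 10 counts in every Ha library and passed only through Hb. All 130 were called higher, and 133 of the 198 in La vs Lb did likewise. Among those with 10 or more counts in some library of both groups, 33 of 65 were higher and 13 lower in Ha vs Hb, and 29 of 63 higher and 19 lower in La vs Lb. Their median log2 fold change was 1.80 in HZ and 0.81 in LC, against −0.28 and −0.37 over the 1924 and 1857 of all lncRNAs with such counts, of which 16.7% were higher in each breed and 19.5% and 23.2% lower. Counts and medians over the transcripts that passed describe them and give no support to an age difference by themselves. Over all antisense lncRNAs tested, most of which passed only through the older group, the median was 6.21 in HZ and 5.87 in LC. With the 70 and 61 transcripts that had a group at 0 set at their lower bound the medians were 3.93 and 3.77, against 0.57 and 0.68 over all lncRNAs tested. The latter are fitted medians with no such bounds set. Scaling the lncRNA table by the mRNA table moved those last medians to 1.27 and 1.21. It also moved the calls to 170 higher and 9 lower of 197, and to 164 higher and 13 lower of 198. Over all lncRNAs the higher share of calls went from 68.7% to 83.3% in HZ and from 68.4% to 80.4% in LC.

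In both breeds 130 transcripts of 116 loci were called higher at 120 days and 15 of 14 loci lower, 0 were called in opposite directions, and 57 of the 288 were tested in neither. These are 79.3% and 9.15% of the 164 tested in both breeds, against 34.6% higher and 12.6% lower of the 2432 lncRNAs tested in both. Of the 130, 96 had fewer than 10 counts in all 6 libraries at 30 days and so passed only through the older groups. Over all lncRNAs 545 of 555 such transcripts were called higher in both breeds. Another 33 were called higher in Ha vs Hb alone, 32 higher in La vs Lb alone and 6 lower in La vs Lb alone, which does not show that the breeds differ for them. Of the intergenic lncRNAs tested, 279 of 352 were higher and 30 lower in Ha vs Hb, and of the intronic ones (class code i) 108 of 145 were higher and 25 lower. Those sharing a junction with a gene (class code j) had 152 of 221 higher and 26 lower. Those of class code o had 24 of 56 higher and 20 lower, with a median log2 fold change of 0.09. The known lncRNAs had 398 of 1938 higher and 395 lower, with a median log2 fold change of −0.18. By arrangement in Ha vs Hb, 53 of 59 tested transcripts inside a gene were higher and 4 lower, 42 of 52 head to head were higher and 3 lower, and 24 of 29 tail to tail were higher and 2 lower. No test was made between the arrangements or the classes.

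MSTRG.6074.1 (3 exons, 723 bases; chromosome 4, 8087393 to 8097326, plus strand) lies inside WISP1, which encodes a secreted matrix protein of Wnt signalling. The lncRNA had FPKM values of 0, 0 and 0.05 in Ha, 0 in the 3 La libraries, 17.0, 17.0 and 18.9 in Hb, and 11.11, 6.41 and 9.53 in Lb. It was at or near 0 in every library at 30 days and present in every library at 120 days, and the Hb to Ha count ratio was 1024 (95% interval 183 to 40492; adjusted p = 0.000143), while it was at least 49.3-fold higher in Lb than in La (adjusted p = 0.000128). Such bounds are computed against 3 counts in each library at 0, and such ratios from the summed counts of the groups where a group has 3 counts or fewer in each library, and both cover counting error only. Here and below, a transcript with such a bound or ratio passed the filter only through its higher group. Its call gives no support to a difference by itself. The same holds for a log2 fold change where 1 group had fewer than 10 counts in every library, as for MSTRG.9305.1 and MSTRG.1408.2. WISP1 itself had FPKM values of 1.51, 2.70 and 3.67 in Ha, 2.18, 1.34 and 1.57 in La, 0.34, 0.15 and 0.39 in Hb, and 1.11, 0.70 and 0.99 in Lb. Within each breed every value at 120 days was below every value at 30 days, and the log2 fold changes of WISP1 were −2.65 ± 0.50 in Ha vs Hb (adjusted p = 0.00231) and −0.55 ± 0.27 in La vs Lb (adjusted p = 0.0952).

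MSTRG.19933.1 (2 exons, 4780 bases; chromosome 14, 47974997 to 47984003, minus strand) overlaps RNF185, a ubiquitin ligase of protein quality control at the endoplasmic reticulum, and a second annotated gene. In FPKM it had 0.01, 0.02 and 0.01 in Ha, 0.01, 0.02 and 0.01 in La, 4.35, 2.97 and 4.38 in Hb, and 2.58, 2.25 and 1.83 in Lb. The 30-day libraries had 2 or 3 counts each and the 120-day libraries were all far above them. In HZ the Hb to Ha count ratio was 212 (95% interval 103 to 528; adjusted p = 0.000136), and in LC the Lb to La count ratio was 124 (95% interval 56.8 to 339; adjusted p = 1.58e-05). RNF185 (FPKM 11.4 to 14.5 at 30 days and 9.40 to 30.3 at 120 days) changed by 0.44 ± 0.16 in Ha vs Hb (adjusted p = 0.0447) and 1.09 ± 0.21 in La vs Lb (adjusted p = 0.0018). Its mean FPKM changed by −0.05 and 0.77 on the log2 scale, so the sign in HZ and the call in LC depend on the scaling.

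MSTRG.6850.1 (3 exons, 940 bases; chromosome 4, 95761548 to 95767055, minus strand) overlaps DENND4B, a regulator of Rab GTPases, and another gene. The transcript was at FPKM values of 0.52, 0.43 and 0.35 in Ha, 0.52, 0.09 and 0.39 in La, 15.7, 15.1 and 18.2 in Hb, and 16.9, 13.3 and 11.0 in Lb. The ages did not overlap in either breed. In HZ the log2 fold change in Ha vs Hb was 5.02 ± 0.31 (adjusted p = 0.000136), and in LC the log2 fold change in La vs Lb was 5.07 ± 0.58 (adjusted p = 0.000264). DENND4B itself (FPKM 5.74 to 6.79 at 30 days and 1.65 to 2.48 at 120 days) changed by −0.99 ± 0.19 in Ha vs Hb (adjusted p = 0.00237) and −1.13 ± 0.12 in La vs Lb (adjusted p = 5.81e-05), and its mean FPKM by −1.46 and −1.42 on the log2 scale.

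MSTRG.2945.1 (2 exons, 687 bases; chromosome 2, 59264814 to 59277003, minus strand) overlaps the end of FKBP8, an abundant immunophilin of the mitochondrial membrane. Across the libraries its FPKM was 0, 0.05 and 0.10 in Ha, 0.05, 0.06 and 0.05 in La, 16.6, 24.0 and 29.4 in Hb, and 17.3, 14.5 and 14.1 in Lb. No 30-day library had more than 2 counts. In HZ the Hb to Ha count ratio was 426 (95% interval 146 to 2069; adjusted p = 0.000184), and in LC the Lb to La count ratio was 244 (95% interval 83.4 to 1187; adjusted p = 1.11e-05). FKBP8 was far more abundant at both ages, with FPKM values of 117, 123 and 132 in Ha, 118, 115 and 109 in La, 230.3, 213 and 218 in Hb, and 216, 227 and 204 in Lb. It too was higher in every 120-day library. Its log2 fold changes by counts were 1.33 ± 0.14 in Ha vs Hb (adjusted p = 0.000137) and 1.23 ± 0.11 in La vs Lb (adjusted p = 1.9e-05), while its mean FPKM rose by 0.83 and 0.92 on the log2 scale and so missed the threshold.

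MSTRG.19849.1 (4 exons, 16664 bases; chromosome 14, 42816869 to 42864034, plus strand) is tail to tail with PIWIL3, a member of the PIWI family whose proteins bind piRNAs in germ cells. By FPKM it stood at 0.32, 0.37 and 0.19 in Ha, 0.30, 0.27 and 0.21 in La, 17.3, 24.0 and 11.8 in Hb, and 16.2, 25.1 and 20.7 in Lb. All values at 120 days were above 11 and all at 30 days below 0.4, and the log2 fold change in Ha vs Hb was 5.73 ± 0.47 (adjusted p = 0.00022) and, likewise, the log2 fold change in La vs Lb was 6.08 ± 0.34 (adjusted p = 1.46e-05). PIWIL3 stayed at 0.11 FPKM or less in all 12 libraries and was too low to be tested between the ages. MSTRG.12391.2 (2 exons, 9691 bases; chromosome 7, 88596924 to 88606986, minus strand) overlaps the end of ZBTB1, a zinc finger transcription factor. It had FPKM values of 0.19, 0.28 and 0.07 in Ha, 0.06, 0.06 and 0.04 in La, 3.84, 3.46 and 3.23 in Hb, and 3.76, 4.43 and 6.45 in Lb. The ages did not overlap, and the log2 fold change in Ha vs Hb was 4.07 ± 0.50 (adjusted p = 0.00075) and, likewise, the log2 fold change in La vs Lb was 6.20 ± 0.32 (adjusted p = 1.11e-05). ZBTB1 (FPKM 4.33 to 7.64 at 30 days and 1.72 to 3.45 at 120 days) did not pass the threshold, at −0.70 ± 0.25 in Ha vs Hb (adjusted p = 0.0385) and −0.71 ± 0.15 in La vs Lb (adjusted p = 0.00287), while its mean FPKM fell by 1.21 and 1.03 on the log2 scale.

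MSTRG.12598.1 (2 exons, 7544 bases; chromosome 7, 110103861 to 110123929, plus strand) overlaps the end of the potassium channel gene KCNK10. Its FPKM values were 0.37, 0.48 and 0.02 in Ha, 0.03, 0.02 and 0.01 in La, 8.88, 9.58 and 8.39 in Hb, and 9.29, 9.69 and 11.3 in Lb. Ha1 and Ha2 were above the other 30-day libraries, and all 6 libraries at 120 days were higher still. In HZ the log2 fold change in Ha vs Hb was 4.79 ± 0.98 (adjusted p = 0.00475), and in LC the log2 fold change in La vs Lb was 8.75 ± 0.39 (adjusted p = 1.09e-05). KCNK10 was between 0.05 and 0.17 FPKM at 30 days and at 0.02 or less at 120 days, and was called lower in both breeds, at −3.24 ± 0.85 in Ha vs Hb (adjusted p = 0.0113) and −3.15 ± 0.69 in La vs Lb (adjusted p = 0.00356).

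The highest mean levels after MSTRG.2345.1 belonged to transcripts of the older testis. MSTRG.918.2 (3 exons, 3113 bases; chromosome 1, 129696145 to 129710896, plus strand) overlaps MGA, a transcription factor that pairs with MAX, and another gene. The lncRNA had FPKM values of 0.36, 0 and 0.05 in Ha, 0, 0 and 0.12 in La, 36.0, 25.5 and 34.3 in Hb, and 27.6, 21.4 and 28.0 in Lb. It was above MGA in all 6 libraries at 120 days, where MGA had 1.06 to 1.47 FPKM. In HZ the log2 fold change in Ha vs Hb was 7.60 ± 1.29 (adjusted p = 0.00207), and in LC the log2 fold change in La vs Lb was 8.91 ± 1.04 (adjusted p = 0.00028). MSTRG.10203.1 (2 exons, 1033 bases; chromosome 6, 79810228 to 79817766, plus strand) shares only 14 bases with the start of the deubiquitinase gene USP48. In FPKM it had 2.95, 1.62 and 3.35 in Ha, 2.59, 3.17 and 1.73 in La, 30.2, 19.8 and 28.9 in Hb, and 25.2, 20.1 and 20.3 in Lb. It was thus detected at both ages, with no overlap between them, and the log2 fold change in Ha vs Hb was 3.09 ± 0.39 (adjusted p = 0.000804) and, likewise, the log2 fold change in La vs Lb was 2.91 ± 0.28 (adjusted p = 0.000135). MSTRG.9305.1 (3 exons, 547 bases; chromosome 6, 46664004 to 46670534, minus strand) faces the annotated lncRNA gene LOC106510537. The transcript was at FPKM values of 0.12, 0.37 and 0.06 in Ha, 0.32, 0 and 0 in La, 27.9, 24.2 and 29.1 in Hb, and 22.8, 18.6 and 23.4 in Lb. All 30-day values were under 0.4, and the log2 fold change in Ha vs Hb was 6.97 ± 0.56 (adjusted p = 0.000207) and, likewise, the log2 fold change in La vs Lb was 7.28 ± 0.80 (adjusted p = 0.000234). Across the 239 pairs the lncRNA had a higher mean FPKM than its gene in 20 pairs in Ha, 15 in La, 86 in Hb and 80 in Lb.

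Among the 15 transcripts lower at 120 days in both breeds, MSTRG.14503.3 (2 exons, 3627 bases; chromosome 9, 53495199 to 53499623, plus strand) lies inside KIRREL3, a cell adhesion protein gene. Across the libraries its FPKM was 1.07, 1.27 and 1.18 in Ha, 1.01, 2.63 and 1.3 in La, 0.18, 0.11 and 0.15 in Hb, and 0.14, 0.11 and 0.37 in Lb. Every 30-day library was above every 120-day library, and the log2 fold change in Ha vs Hb was −3.20 ± 0.32 (adjusted p = 0.000431) and, likewise, the log2 fold change in La vs Lb was −3.28 ± 0.53 (adjusted p = 0.00104). MSTRG.5609.1 (9 exons, 2051 bases; chromosome 3, 102047027 to 102091206, plus strand) overlaps the annotated lncRNA gene LOC102160052. By FPKM it stood at 9.70, 11.3 and 8.72 in Ha, 10.6, 7.10 and 7.90 in La, 1.3, 1.63 and 0.78 in Hb, and 2.52, 2.53 and 1.88 in Lb. The ages did not overlap, and the log2 fold change in Ha vs Hb was −3.18 ± 0.36 (adjusted p = 0.000622) and, likewise, the log2 fold change in La vs Lb was −2.12 ± 0.31 (adjusted p = 0.000726). Its locus has 2 transcripts, of which 1 is antisense. Summed over the locus the counts fell less in HZ, from 1259, 1442 and 1268 in Ha to 542, 487 and 220 in Hb. They were 1850, 1279 and 1280 in La and 535, 484 and 410 in Lb.

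MSTRG.6870.1 (2 exons, 3512 bases; chromosome 4, 96258424 to 96281254, minus strand) has PGLYRP3 in its span but no gene position under its exons. It had FPKM values of 1.37, 1.20 and 1.82 in Ha, 2.60, 3.37 and 1.80 in La, 0.07, 0.21 and 0.16 in Hb, and 0.39, 0.30 and 0.55 in Lb. All 30-day values exceeded all 120-day values, and the log2 fold change in Ha vs Hb was −3.48 ± 0.48 (adjusted p = 0.00109) and, likewise, the log2 fold change in La vs Lb was −2.90 ± 0.31 (adjusted p = 0.000192). MSTRG.2895.1 (2 exons, 5604 bases; chromosome 2, 57269953 to 57277916, minus strand) overlaps TRIM52, of the TRIM family of ubiquitin ligases, and an annotated lncRNA gene. Its FPKM values were 1.89, 2.19 and 2.23 in Ha, 2.45, 2.70 and 1.52 in La, 0.71, 0.81 and 0.75 in Hb, and 0.67, 0.80 and 0.94 in Lb. The ages did not overlap, and the log2 fold change in Ha vs Hb was −1.67 ± 0.25 (adjusted p = 0.00135) and, likewise, the log2 fold change in La vs Lb was −1.70 ± 0.26 (adjusted p = 0.000934), but the fall in Ha vs Hb was 0.98 and under the threshold when scaled by the mRNA table. TRIM52 (FPKM 11.11 to 15.8 at 30 days and 18.6 to 24.9 at 120 days) moved the other way, at 1.43 ± 0.17 in Ha vs Hb (adjusted p = 0.00029) and 1.0 ± 0.13 in La vs Lb (adjusted p = 0.000157), the latter at the edge of the threshold, while its mean FPKM rose by only 0.78 and 0.55 on the log2 scale.

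To ask whether the facing genes moved with their antisense lncRNAs, the mRNA table was tested in the same way. Of the 200 facing genes 187 were tested in Ha vs Hb, with 58 called higher and 29 lower, against 28.2% higher and 23.2% lower of the 16548 mRNAs tested. In La vs Lb 189 were tested, with 51 higher and 38 lower, against 27.5% higher and 20.1% lower of 16637. Their median log2 fold changes were 0.18 and 0.15, against −0.02 and 0.01 over all mRNAs. The calls were 46.5% and 47.1% of the genes tested, near the 51.4% and 47.6% of all mRNAs. The scaling of the counts matters for the genes. Over the genes with FPKM in both groups the fitted log2 fold change was above the log2 change of the mean FPKM by a median of 0.49 in HZ and 0.31 in LC, both for the facing genes and for all mRNAs. By FPKM the facing genes called lower all fell more than 2-fold, 29 of 29 in HZ and 37 of 37 in LC, and of those called higher 43 of 57 and 41 of 49 rose more than 2-fold. In Ha vs Hb both partners were tested in 159 pairs. The lncRNA was called higher and the gene higher in 36, the lncRNA higher and the gene lower in 21, and the lncRNA higher with no call for the gene in 78. In La vs Lb the same counts were 37, 20 and 76 of 156 pairs. The lncRNA was called lower with the gene higher in 5 pairs and with the gene lower in 2 in Ha vs Hb, and in 1 and 6 in La vs Lb.

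The balance within a pair was tested as the difference between ages in the log2 ratio of lncRNA counts to gene counts, with 1 added to each. The library size cancels only where both counts are well above 1. The ratio was called higher at 120 days in 125 of 159 pairs (78.6%) and lower in 14 (8.81%) in Ha vs Hb, 87.4% in all. In La vs Lb it was higher in 122 of 156 (78.2%) and lower in 13 (8.33%), 86.5% in all. The pairs are the whole of this table, so there is no wider set to read these percentages against. These counts describe the pairs and do not support a shift by themselves, since in 107 of the 159 and 108 of the 156 the lncRNA had fewer than 10 counts in every 30-day library and passed the filter only through the older group. Where the lncRNA had 10 or more counts in some library of both groups, the ratio was higher in 33 and lower in 9 of 50 pairs in HZ, and higher in 26 and lower in 8 of 47 in LC. The same pairs were higher in both breeds in 99 cases and lower in 10, and 0 were opposite. Of the 36 pairs in which both partners rose in Ha vs Hb the ratio was higher in 22 and lower in 4. Of the 37 in La vs Lb it was higher in 24 and lower in 5.

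Pairs called in opposite directions numbered 26 of 159 in HZ and 21 of 156 in LC. Of all mRNAs tested 23.2% were lower in HZ and 20.1% in LC, and of all antisense lncRNAs tested 82.7% and 81.8% were higher. These counts describe the pairs, and a link between the partners was not tested. The same pair was called so in both breeds in 12 cases, and in 11 of these 12 the lncRNA rose and the gene fell. The exception was MSTRG.11658.1, which fell while ARMC12, a gene of the sperm mitochondrial sheath, rose. The other genes were TAPBP, KCNK10, GBE1, PLCB4, GLI3, MAP3K5, ZC3H7A, MB21D1, ZNF704, SLAMF8 and SORD. MSTRG.23656.2 (2 exons, 6187 bases; chromosome 18, 52488330 to 52495653, minus strand) lies inside GLI3, a transcription factor of hedgehog signalling. The lncRNA had FPKM values of 0.02, 0.07 and 0.05 in Ha, 0.07, 0.03 and 0 in La, 5.11, 3.53 and 3.85 in Hb, and 4.38, 4.03 and 3.55 in Lb. GLI3 was at FPKM values of 3.29, 3.62 and 3.95 in Ha, 5.25, 4.34 and 4.47 in La, 0.99, 0.88 and 0.69 in Hb, and 1.54, 1.33 and 1.37 in Lb. The lncRNA was near 0 at 30 days and above the gene in all libraries at 120 days, and the gene was higher in every 30-day library. In HZ the log2 fold change in Ha vs Hb was 6.21 ± 0.49 (adjusted p = 0.000189) for the lncRNA, and in LC the log2 fold change in La vs Lb was 6.67 ± 0.77 (adjusted p = 0.000272). For GLI3 the values were −1.59 ± 0.20 in Ha vs Hb (adjusted p = 0.000306) and −1.41 ± 0.15 in La vs Lb (adjusted p = 4.91e-05). The log2 ratio changed by 8.48 ± 0.47 in Ha vs Hb (adjusted p = 3.43e-06) and 9.03 ± 0.77 in La vs Lb (adjusted p = 8.55e-07).

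MSTRG.22469.1 (2 exons, 1174 bases; chromosome 17, 18400112 to 18415801, minus strand) overlaps the end of PLCB4, a phospholipase C that acts downstream of receptors. In FPKM it had 0 in the 6 libraries at 30 days, 3.08, 3.36 and 2.11 in Hb, and 1.26, 2.49 and 3.63 in Lb. PLCB4 was at FPKM values of 1.86, 2.53 and 2.61 in Ha, 2.63, 2.32 and 2.74 in La, 0.58, 1.14 and 0.88 in Hb, and 0.68, 0.82 and 1.12 in Lb. The lncRNA was read in all 6 libraries at 120 days, and PLCB4 was lower in every 120-day library than in any at 30 days. The lncRNA was at least 30.2-fold higher in Hb than in Ha (adjusted p = 0.000666) and at least 21.5-fold higher in Lb than in La (adjusted p = 0.000519). PLCB4 changed by −1.0 ± 0.26 in Ha vs Hb (adjusted p = 0.0102) and −1.25 ± 0.19 in La vs Lb (adjusted p = 0.000518).

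Other pairs called in opposite directions in HZ hold abundant genes. MSTRG.14715.1 (2 exons, 2803 bases; chromosome 9, 80639945 to 80645889, plus strand) is head to head with NDUFA4, a subunit of the mitochondrial respiratory chain. The transcript was at FPKM values of 0.20, 0.13 and 0.16 in Ha, 0.14, 0.06 and 0.05 in La, 2.66, 3.19 and 2.2 in Hb, and 1.40, 2.64 and 1.70 in Lb. NDUFA4 was at FPKM values of 134, 137 and 120.4 in Ha, 122, 112 and 119.8 in La, 26.6, 36.5 and 32.7 in Hb, and 43.3, 51.7 and 57.2 in Lb. No group overlapped between ages for either partner, and the lncRNA remained far below the gene. In HZ the log2 fold change in Ha vs Hb was 3.82 ± 0.35 (adjusted p = 0.000353), and in LC the log2 fold change in La vs Lb was 4.32 ± 0.53 (adjusted p = 0.000347). NDUFA4 changed by −1.54 ± 0.13 in Ha vs Hb (adjusted p = 5.04e-05), and by −0.91 ± 0.12 in La vs Lb (adjusted p = 0.000229), which misses the threshold on size, while its mean FPKM there fell by 1.22 on the log2 scale.

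MSTRG.12507.4 (2 exons, 722 bases; chromosome 7, 97277742 to 97290826, plus strand) lies inside ENTPD5, a nucleotidase of the endoplasmic reticulum. Across the libraries its FPKM was 0, 0.02 and 0 in Ha, 0 in the 3 La libraries, 5.01, 3.22 and 6.69 in Hb, and 2.18, 2.2 and 1.79 in Lb. ENTPD5 was at FPKM values of 78.3, 65.1 and 68.1 in Ha, 51.5, 32.0 and 46.7 in La, 18.5, 17.0 and 15.7 in Hb, and 20.9, 14.9 and 15.0 in Lb. The gene was higher in every 30-day library and the lncRNA in every 120-day library. The lncRNA was at least 31.7-fold higher in Hb than in Ha (adjusted p = 0.000725) and at least 11.4-fold higher in Lb than in La (adjusted p = 0.000487). ENTPD5 changed by −1.51 ± 0.15 in Ha vs Hb (adjusted p = 0.000103) and −1.0 ± 0.21 in La vs Lb (adjusted p = 0.00311), the latter at the edge of the threshold. MSTRG.9134.1, tail to tail with ITFG1, showed the same order of ages. By FPKM it stood at 0, 0 and 0.03 in Ha, 0 in the 3 La libraries, 4.10, 3.69 and 1.33 in Hb, and 1.13, 0.70 and 0.68 in Lb. In HZ the Hb to Ha count ratio was 279 (95% interval 49.8 to 11069; adjusted p = 0.000798), and in LC it was at least 7.01-fold higher in Lb than in La (adjusted p = 0.00101). ITFG1 (FPKM 17.8 to 23.9 at 30 days and 5.41 to 9.49 at 120 days) changed by −1.01 ± 0.16 in Ha vs Hb (adjusted p = 0.00093) and −0.86 ± 0.14 in La vs Lb (adjusted p = 0.000575), and by −1.49 and −1.18 on the log2 scale by mean FPKM. In LC the opposite pairs with the smallest p also held ERN1, a sensor of unfolded proteins. Its head-to-head lncRNA MSTRG.16747.1 had FPKM values of 0.06, 0.18 and 0 in Ha, 0, 0 and 0.03 in La, 3.11, 1.88 and 3.04 in Hb, and 2.01, 1.74 and 2.21 in Lb. For this lncRNA the log2 fold change in Ha vs Hb was 4.83 ± 0.84 (adjusted p = 0.00227), and the Lb to La count ratio was 154 (95% interval 27.3 to 6096; adjusted p = 0.000241). ERN1 (FPKM 7.14 to 10.1 at 30 days and 3.40 to 5.89 at 120 days) changed by −0.27 ± 0.17 in Ha vs Hb (adjusted p = 0.184) and −1.01 ± 0.14 in La vs Lb (adjusted p = 0.000221).

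Pairs called in the same direction numbered 38 of 159 in HZ and 43 of 156 in LC, where 28.2% and 27.5% of all mRNAs tested were higher. Among those pairs, 30 with 27 genes were the same in both breeds. In 28 of the 30 both partners rose, and in those with RAD23B and RAPGEF3 both fell. By FPKM the gene rose more than 2-fold in 30 of the 36 pairs that rose in HZ and in 31 of the 37 in LC. MSTRG.21719.2 (4 exons, 1061 bases; chromosome 15, 131731794 to 131743333, minus strand) is head to head with SPATA3, a gene named for spermatogenesis. It had FPKM values of 0, 0 and 0.06 in Ha, 0.03, 0 and 0 in La, 3.80, 6.31 and 3.39 in Hb, and 6.03, 4.77 and 4.38 in Lb. SPATA3 was at FPKM values of 0.01, 0.01 and 0.01 in Ha, 0.04, 0.10 and 0.01 in La, 21.5, 28.3 and 28.7 in Hb, and 14.5, 11.0 and 11.3 in Lb. Both partners were at or near 0 at 30 days and present in all 6 libraries at 120 days. In HZ the Hb to Ha count ratio was 198 (95% interval 54.5 to 1640.0; adjusted p = 0.000666), and in LC the Lb to La count ratio was 377 (95% interval 67.3 to 14902; adjusted p = 7e-05). SPATA3 rose by 10.18 ± 0.28 in Ha vs Hb (adjusted p = 1.65e-06) and 7.94 ± 0.28 in La vs Lb (adjusted p = 1.16e-07), and the log2 ratio changed by −2.55 ± 0.55 in Ha vs Hb (adjusted p = 0.00319) and −0.56 ± 0.42 in La vs Lb (adjusted p = 0.223). The lncRNA's locus had 0, 0 and 2 counts in Ha and 1, 0 and 0 in La. The 1 added to each count thus weighs on the ratios at 30 days, and their changes do not measure the balance.

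MSTRG.7731.1 (5 exons, 822 bases; chromosome 5, 16826201 to 16842685, minus strand) shares 19 bases with the start of SLC4A8, a sodium bicarbonate transporter gene. Its FPKM values were 0.08, 0 and 0 in Ha, 0.04, 0.10 and 0.12 in La, 18.9, 7.80 and 9.55 in Hb, and 10.5, 13.2 and 12.8 in Lb. SLC4A8 was at FPKM values of 3.90, 4.65 and 2.33 in Ha, 2.48, 2.36 and 2.02 in La, 20.5, 25.0 and 20.9 in Hb, and 21.4, 20.1 and 21.0 in Lb. Both were higher in every 120-day library. In HZ the Hb to Ha count ratio was 403 (95% interval 111 to 3331; adjusted p = 0.000482), and in LC the Lb to La count ratio was 115 (95% interval 52.8 to 315; adjusted p = 2.34e-05). SLC4A8 rose by 3.11 ± 0.26 in Ha vs Hb (adjusted p = 4.87e-05) and 3.51 ± 0.11 in La vs Lb (adjusted p = 8.33e-08).

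MSTRG.408.1 (3 exons, 1059 bases; chromosome 1, 57146842 to 57150671, plus strand) lies inside SRSF12, a splicing regulator gene. The lncRNA had FPKM values of 0.40, 0.35 and 0.31 in Ha, 0.39, 0.35 and 0.34 in La, 3.94, 3.98 and 7.45 in Hb, and 2.02, 2.02 and 1.36 in Lb. SRSF12 was at FPKM values of 3.07, 3.39 and 2.96 in Ha, 2.98, 3.94 and 3.53 in La, 13.3, 10.7 and 9.15 in Hb, and 7.67, 7.24 and 8.60 in Lb. The lncRNA was detected at both ages, and neither partner overlapped between ages. For the lncRNA the log2 fold change in Ha vs Hb was 3.63 ± 0.40 (adjusted p = 0.000545), and the log2 fold change in La vs Lb was 2.06 ± 0.43 (adjusted p = 0.00341). SRSF12 rose by 2.07 ± 0.23 in Ha vs Hb (adjusted p = 0.000182) and 1.07 ± 0.19 in La vs Lb (adjusted p = 0.000968).

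MSTRG.1408.2 (2 exons, 1070 bases; chromosome 1, 200770395 to 200774139, minus strand) shares 486 bases with the end of CDKN2B, an inhibitor of the kinases that drive the cell cycle. In FPKM it had 0.15, 0.13 and 0.12 in Ha, 0.19, 0.08 and 0.16 in La, 12.0, 7.74 and 8.66 in Hb, and 6.17, 4.32 and 2.74 in Lb. The ages did not overlap, and the log2 fold change in Ha vs Hb was 5.90 ± 0.36 (adjusted p = 0.000136) and, likewise, the log2 fold change in La vs Lb was 4.66 ± 0.56 (adjusted p = 0.000318). CDKN2B rose by 4.17 ± 0.41 in Ha vs Hb (adjusted p = 0.000101) and 3.64 ± 0.36 in La vs Lb (adjusted p = 3.84e-05) by counts. Its deposited FPKM values did not show this, at 0.20, 0.17 and 0.47 in Ha, 0.14, 0.03 and 0.28 in La, 0.42, 0.36 and 0.48 in Hb, and 0.25, 0.23 and 0.23 in Lb, so its counts and FPKM do not give the same picture.

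The functions of the facing genes were read from the deposited GO terms, which 173 of the 200 genes have. Genes with a term of spermatogenesis, sperm or meiosis faced 12 antisense lncRNAs (7 genes). Of the 12, 5 belong to the locus MSTRG.2725 over LGR4, and MSTRG.17842.1 and MSTRG.17842.2 share a locus over TOP2B. Transcripts of a locus are not independent of one another. Of 9 tested in Ha vs Hb 8 rose and 1 fell, and of 5 in La vs Lb 4 rose and 1 fell. Of the 7 genes themselves 0 were called higher and 2 lower in Ha vs Hb, and 1 higher and 2 lower in La vs Lb. SPATA3, ARMC12 and GTF2A1L, facing genes called higher in both breeds, are not in this list. It thus does not cover all facing genes of sperm, and the other lists rest on deposited terms in the same way. Over the 432 genes of that list tested in HZ, 251 were higher and 42 lower, and over 435 in LC 248 were higher and 36 lower. Genes with a term of transcription factor activity or sequence-specific DNA binding faced 15 (14 genes, among them RAD23B, while ZBTB1 lacks these terms), of which 14 were tested in each breed, with 10 higher and 3 lower in Ha vs Hb and 10 higher and 4 lower in La vs Lb. Of their genes 13 were tested, with 2 higher and 4 lower in Ha vs Hb and 1 higher and 5 lower in La vs Lb. All genes of that list tested numbered 1053 in HZ, with 223 higher and 300 lower, and 1058 in LC, with 213 higher and 276 lower. Terms of cilium or flagellum were held by 5 facing genes, extracellular matrix or collagen by 4 and protein kinase activity by 6, of which RNF185 also has a term of ubiquitin ligase activity. The antisense lncRNAs tested in those lists were all higher at 120 days in Ha vs Hb (4, 4 and 5 tested) and likewise for LC (5, 2 and 5 tested), where 82.7% and 81.8% of all antisense lncRNAs tested were higher. Of their genes tested in HZ, 2 were higher and 2 lower of 5 for cilium, 1 higher and 2 lower of 4 for matrix, and 0 higher and 2 lower of 6 for kinases. Over all genes of these lists tested in HZ, 238 were higher and 54 lower of 419, 36 higher and 170 lower of 300, and 154 higher and 155 lower of 629. In LC the facing genes were 1 higher and 2 lower, 1 higher and 1 lower, and 1 higher and 2 lower, against 220 higher and 40 lower of 425, 39 higher and 138 lower of 303, and 145 higher and 139 lower of 629. The lists hold between 0.908% and 1.48% of their genes facing an antisense lncRNA.

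Genes that handle antisense or double-stranded RNA were taken as a list of 20, of which 18 were in the mRNA table. In Ha vs Hb 7 rose and 4 fell, and in La vs Lb 4 rose and 4 fell. These stand against 28.2% higher and 23.2% lower of all mRNAs tested in HZ and 27.5% and 20.1% in LC. The most abundant at 30 days was DHX9, a helicase that opens double-stranded RNA, with mean FPKM values of 159 in Ha and 88.2 in Hb and no call. At 120 days it was ADAD1, which encodes a germ cell protein of the adenosine deaminase family and rose from 7.50 to 185 FPKM in HZ (log2 fold change 5.13 ± 0.21, adjusted p = 2.73e-06) and from 4.31 to 146 in LC (5.41 ± 0.13, adjusted p = 3.54e-08). ADAD2, AGO2, which binds small RNAs, and DIS3, an exosome nuclease, were also called higher in both breeds. ADARB1, IFIH1 and EIF2AK2, an RNA editor and sensors of double-stranded RNA, were called lower in both. A gene of this list, EXOSC3 of the RNA exosome, faces an antisense lncRNA, MSTRG.1692.1 (3 exons, 830 bases; chromosome 1, 238540988 to 238563398, plus strand), which also overlaps another gene. The transcript was at FPKM values of 0.20, 0.21 and 0.04 in Ha, 0.08, 0 and 0.08 in La, 3.36, 1.57 and 7.95 in Hb, and 4.78, 4.70 and 3.90 in Lb. The ages did not overlap, and the log2 fold change in Ha vs Hb was 4.61 ± 0.81 (adjusted p = 0.00239) and, likewise, the Lb to La count ratio was 64.7 (95% interval 25.0 to 239; adjusted p = 0.00027). EXOSC3 was at 0.61 FPKM or less in all 12 libraries and changed by 4.10 ± 0.97 in Ha vs Hb (adjusted p = 0.00683) and −0.01 ± 1.22 in La vs Lb (adjusted p = 0.994).

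The breeds were compared at each age, with fold changes of LC over HZ. The age comparisons and the breed comparisons share libraries. At 30 days 61 of the 288 antisense lncRNAs passed the filter, and 4 were called higher and 1 lower in La, 5 in all. Of the 2096 lncRNAs tested 2.62% were higher and 3.72% lower, 6.35% in all. The antisense count of 5 was 2 without Ha1 or Ha2, 3 without any La library and 7 without Ha3. The filter shaped this count, since 1 antisense lncRNA had fewer than 10 counts in every Ha library and was called higher. Another 2 had fewer than 10 in every La library, of which 1 was called lower. Of the 58 antisense lncRNAs with 10 or more counts in some library of both groups 3 were higher and 0 lower. The shares over the 1925 of all lncRNAs with such counts were 1.51% higher and 1.97% lower. The median log2 fold change was −0.04, against −0.03 over all lncRNAs. MSTRG.17058.1 (2 exons, 2316 bases; chromosome 12, 26365148 to 26376275, minus strand) overlaps the end of SGCA, a sarcoglycan gene of muscle. Across the libraries its FPKM was 0.55, 0.56 and 1.48 in Ha, 8.17, 11.6 and 6.86 in La, 0, 0.05 and 0.02 in Hb, and 0.14, 0.07 and 0.11 in Lb. La was above Ha in all libraries with no overlap, all 120-day libraries were lower than all 30-day ones, and the log2 fold change in Ha vs La was 3.27 ± 0.43 (adjusted p = 0.00842). With age the log2 fold change in Ha vs Hb was −5.27 ± 0.95 (adjusted p = 0.0027) and, likewise, the log2 fold change in La vs Lb was −6.59 ± 0.37 (adjusted p = 1.48e-05). SGCA was at 0.43 FPKM or less throughout and had no call in any of the 4 comparisons.

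MSTRG.19609.1 (7 exons, 1604 bases; chromosome 14, 27048479 to 27292109, plus strand) overlaps the annotated lncRNA gene LOC102165372. By FPKM it stood at 0.02, 0.02 and 0.10 in Ha, 3.72, 2.12 and 3.06 in La, 0.02, 0 and 0 in Hb, and 0.08, 0.04 and 0.16 in Lb. Only the La libraries were above 0.2, and the log2 fold change in Ha vs La was 5.84 ± 0.65 (adjusted p = 0.00547) and, likewise, the log2 fold change in La vs Lb was −5.31 ± 0.54 (adjusted p = 0.000151). With 1, 1 and 5 counts in Ha and 4, 2 and 7 in Lb, MSTRG.19609.1 passed the filter only through La. Neither call gives support to a difference by itself. MSTRG.1777.2 (chromosome 1, 249261453 to 249847089, minus strand) has no gene position under its exons. It had FPKM values of 1.19, 2.47 and 1.44 in Ha, 0.17, 0.08 and 0 in La, 4.65, 4.86 and 3.90 in Hb, and 2.58, 5.12 and 2.75 in Lb. La was below Ha with no overlap, and the other 3 groups were detected in every library. In the breed comparison the log2 fold change in Ha vs La was −4.42 ± 0.82 (adjusted p = 0.0255). MSTRG.1777.2 had 5, 2 and 0 counts in La and passed the filter only through Ha, so the call gives no support to a difference by itself. This call was lost when any of the 6 libraries was left out, with log2 fold changes between −3.88 and −5.44. The other calls at 30 days were MSTRG.24040.3 and MSTRG.4753.1, both higher in La, and the latter was also called higher in Lb than in Hb. Both were named after their values were seen.

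At 120 days 236 of the 288 passed the filter, and 5 were called higher and 6 lower in Lb, 11 in all. Of the 3213 lncRNAs tested 1.53% were higher and 1.62% lower, 3.14% in all. The filter shaped this count too, since 5 antisense lncRNAs had fewer than 10 counts in every Hb library, of which 3 were called higher, and 8 in every Lb library, of which 5 were called lower. Of the 223 with 10 or more counts in some library of both groups 2 were higher and 1 lower. The shares over the 3050 of all lncRNAs with such counts were 0.689% higher and 0.787% lower. The median log2 fold change was −0.26, against 0.01 over all lncRNAs. The count was not stable, with 1 call without Lb1 or Lb3, 2 without Lb2, 4 without Hb1, 6 without Hb2 and 9 without Hb3. It rose to 29 with DESeq2 and to 17 with limma on log2(FPKM + 0.1). MSTRG.13061.1 (2 exons, 674 bases; chromosome 8, 41443913 to 41447995, minus strand) lies inside KIT, the receptor of stem cell factor on germ cells that have started to differentiate. Its FPKM values were 0 in the 6 libraries at 30 days, 0 in the 3 Hb libraries, and 2.41, 4.39 and 5.60 in Lb. It was thus read only in the 3 Lb libraries, with 54 to 102 counts there and 0 in the other 9, and it was at least 24.9-fold higher in Lb than in Hb (adjusted p = 0.0152). This call was lost when any Lb library was left out, at fitted log2 fold changes of 9.59 without Lb1, 9.23 without Lb2 and 9.20 without Lb3 that rest on a group at 0. MSTRG.13061.1 passed the filter only through Lb, so the call gives no support to a difference by itself. KIT had FPKM values of 16.1, 15.4 and 9.70 in Ha, 8.62, 7.81 and 10.5 in La, 3.65, 7.19 and 3.99 in Hb, and 9.47, 9.10 and 8.16 in Lb. It was read in all 12 libraries, and was lower in Hb than in Ha with a log2 fold change of −1.01 ± 0.27 in Ha vs Hb (adjusted p = 0.0128), while the values were 0.31 ± 0.15 in La vs Lb (adjusted p = 0.0971) and 0.75 ± 0.25 in Hb vs Lb (adjusted p = 0.115).

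MSTRG.21148.1 (2 exons, 390 bases; chromosome 15, 47017079 to 47018306, minus strand) lies inside FAM149A. The lncRNA had FPKM values of 0 in the 6 libraries at 30 days, 8.19, 8.81 and 8.83 in Hb, and 0 in the 3 Lb libraries. It was read only in Hb, and it was at least 37.6-fold higher in Hb than in Lb (adjusted p = 0.00827), and in HZ it was at least 30.0-fold higher in Hb than in Ha (adjusted p = 0.000524). MSTRG.21148.1 passed the filter only through Hb, so neither call gives support to a difference by itself. FAM149A had FPKM values of 15.6, 11.8 and 15.7 in Ha, 20.03, 21.6 and 19.9 in La, 6.14, 15.1 and 11 in Hb, and 12.4, 13.8 and 20.9 in Lb. The gene's groups overlapped between the breeds at 120 days, with a log2 fold change of 0.39 ± 0.31 in Hb vs Lb (adjusted p = 0.462). MSTRG.2063.2, named here after its values were seen, faces the annotated lncRNA gene LOC102166638. It too was read only in Hb, with 149, 290 and 80 counts there and 0 in the other 9 libraries.

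MSTRG.5829.6 (chromosome 3, 123789847 to 124071351, plus strand) had the smallest adjusted p among those higher in Lb and has no gene of the mRNA table under its exons. In FPKM it had 0 in the 6 libraries at 30 days, 0.07, 0.05 and 0 in Hb, and 3.02, 1.71 and 2.94 in Lb. Lb stood above the other 3 groups, where no library exceeded 0.1, and the Lb to Hb count ratio was 52.8 (95% interval 20.3 to 195; adjusted p = 0.0148). The call was lost without Hb1 or any Lb library, at fitted log2 fold changes between 5.51 and 6.01. MSTRG.5829.6 passed the filter only through Lb, so its call gives no support to a difference by itself. Over its locus, which has 4 transcripts of which 3 are antisense, the summed counts were 35, 52 and 118 in Hb and 212, 162 and 220 in Lb.

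The 5 antisense transcripts of the locus MSTRG.2725 overlap the end of LGR4, a receptor gene that strengthens Wnt signals (chromosome 2, 32871837 to 32979150). The FPKM values of MSTRG.2725.4 were 0 in the 3 Ha libraries, 0.09, 0 and 0 in La, 3.21, 5.88 and 5.91 in Hb, and 0, 0.06 and 0 in Lb, and those of MSTRG.2725.1 were 0 in the 3 Ha libraries, 0, 0.03 and 0 in La, 0.53, 0.64 and 0.60 in Hb, and 0.58, 0.24 and 0.55 in Lb. The former was at or near 0 in Lb and the groups of the latter overlapped. In the breed comparison the Hb to Lb count ratio was 384 (95% interval 68.4 to 15202; adjusted p = 0.00827) for MSTRG.2725.4, a call lost without Lb replicate 1 or without Lb replicate 3 (log2 fold change of MSTRG.2725.4, Hb vs Lb, −7.58 and −7.60). MSTRG.2725.4 passed the filter only through Hb, so this call gives no support to a difference by itself. MSTRG.2725.2 and MSTRG.2725.5 were also called lower in Lb, MSTRG.2725.1 was at −0.45 ± 0.45 (adjusted p = 0.655), and MSTRG.2725.3 was too low to be tested. The last went the other way, with FPKM values of 0, 0.13 and 0.15 in Hb and 0.24, 0.25 and 0.43 in Lb. Summed over the locus the counts were 147, 282 and 236 in Hb and 37, 25 and 36 in Lb, so the locus as a whole was also lower in Lb without overlap. LGR4 itself (FPKM 15.8 to 22.0 at 30 days and 5.54 to 11.0 at 120 days) was at 0.39 ± 0.21 in Hb vs Lb (adjusted p = 0.287).

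Few facing genes were called between breeds. At 30 days 4 of 179 tested genes were called higher and 0 lower in La, against 3.60% higher and 4.01% lower of 15648 mRNAs (7.62% in all). At 120 days 2 of 186 were higher and 3 lower in Lb, against 2.65% higher and 1.20% lower of 16311 (3.85% in all). At 30 days the log2 ratio of lncRNA to gene was higher in La in 5 of 43 pairs (11.6%) and lower in 3 (6.98%), 18.6% in all. At 120 days it was higher in Lb in 4 of 187 pairs (2.14%) and lower in 11 (5.88%), 8.02% in all. With a library left out, the facing genes called ranged from 2 to 8 at 30 days and 0 to 6 at 120 days, and the ratios from 1 to 7 and from 10 to 19. Facing genes called at 120 days were 10 with DESeq2, 9 with limma on log2(FPKM + 0.1) and 11 with all 12 libraries fitted together. At 30 days 1 was called with limma on log2(FPKM + 1) and 1 with all 12 libraries. On FPKM with 0.1 added to both, the ratio was called in 23 pairs at 120 days. Both partners were called in 1 pair at 30 days, MSTRG.24040.3 and LOC110257828, both higher in La, and in 0 pairs at 120 days. A breed by age interaction, the difference between breeds in the change with age, was tested in all 12 libraries. It was called for 0 of the 246 antisense lncRNAs tested with edgeR, against 0.0257% of the 3886 lncRNAs tested, and 19 of the 246 had an unadjusted p under 0.05. With DESeq2 it was called for 8 of the 246 (3.25%), against 3.37% of the 3886. A miss of this threshold with 3 libraries per group does not show that the breeds change alike.

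Loci with several antisense transcripts varied in other ways. All 4 transcripts of MSTRG.14362 are head to head with TRIM29, of the TRIM family, and span the same positions (chromosome 9, 47283802 to 47285953, plus strand). The FPKM values of MSTRG.14362.2 were 0, 0 and 0.10 in Ha, 0.05, 0 and 0 in La, 7.25, 1.98 and 6.25 in Hb, and 9.04, 7.26 and 8.36 in Lb. TRIM29 was at FPKM values of 0.53, 0.37 and 0.33 in Ha, 0.26, 0.24 and 0.20 in La, 74.0, 63.0 and 76.5 in Hb, and 60.4, 66.3 and 55.3 in Lb. Both partners were near 0 at 30 days and high at 120 days, and TRIM29 rose by 7.93 ± 0.27 in Ha vs Hb (adjusted p = 1.73e-06) and 8.33 ± 0.18 in La vs Lb (adjusted p = 3.54e-08). For the lncRNA the Hb to Ha count ratio was 138 (95% interval 38.0 to 1147; adjusted p = 0.00131), and the Lb to La count ratio was 390.0 (95% interval 69.7 to 15432; adjusted p = 5.65e-05). The 5 antisense transcripts of MSTRG.11474, head to head with the stress response gene IER3 (chromosome 7, 23265560 to 23266905), came almost only from Hb2. MSTRG.11474.4 had an FPKM of 6.35 in Hb2 and 0 in the other 11 libraries, and MSTRG.11474.2 had 5.38 in Hb2 and at most 0.09 in the other 11. None of the 5 passed the filter in any comparison.

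The longest overlaps were those of MSTRG.19307.1 with TRAPPC10, a subunit of a vesicle tethering complex (11314 bases), and of MSTRG.21566.1 with CREB1, the cyclic AMP response factor (8300 bases). The FPKM values of MSTRG.19307.1 were 0, 0 and 0.01 in Ha, 0.03, 0.02 and 0.02 in La, 0.27, 0.09 and 0.32 in Hb, and 0.52, 0.57 and 0.71 in Lb. All 120-day libraries were above all 30-day ones, and the log2 fold change in Ha vs Hb was 5.51 ± 1.11 (adjusted p = 0.00434) and, likewise, the log2 fold change in La vs Lb was 4.28 ± 0.35 (adjusted p = 6.2e-05). TRAPPC10 (FPKM 7.46 to 8.84 at 30 days and 5.99 to 8.07 at 120 days) was at 0.17 ± 0.13 in Ha vs Hb (adjusted p = 0.26) and 0.19 ± 0.10 in La vs Lb (adjusted p = 0.107), while its mean FPKM changed by −0.33 and −0.12 on the log2 scale, so its direction turns with the scaling. The FPKM values of MSTRG.21566.1 were 0.97, 1.21 and 1.13 in Ha, 1.56, 1.38 and 0.94 in La, 0.64, 0.54 and 0.53 in Hb, and 0.66, 0.39 and 0.76 in Lb. It was lower in every 120-day library, and the log2 fold change in Ha vs Hb was −1.15 ± 0.25 (adjusted p = 0.00559) and, likewise, the log2 fold change in La vs Lb was −1.36 ± 0.29 (adjusted p = 0.004). Neither fall passed the threshold when scaled by the mRNA table, at −0.45 and −0.82, and the fall in HZ also missed it without Hb3 (−0.97).

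The makeup of the tissue moved with age beside these results. All 8 spermatocyte markers were called higher at 120 days in both breeds, and their summed FPKM was 4.41 to 11.0 over the libraries at 30 days and 110.3 to 157 at 120 days. The most abundant by group mean was PIWIL1 in Ha, Hb and Lb and MEIOB in La. Of 10 spermatid markers 9 were tested and called higher in each breed. Their summed FPKM was 5.72, 7.02 and 6.73 in Ha, 10.8, 9.39 and 4.53 in La, 5280.0, 5793 and 7667 in Hb, and 3909, 3342 and 3575 in Lb. PRM1 was the most abundant of them in each group, and TNP1, a transition protein of spermatids, had no count in Ha2, Ha3, La2 and La3. Of 11 spermatogonia markers 3 were higher and 6 lower in Ha vs Hb and 4 higher and 5 lower in La vs Lb, with a summed FPKM of 40.6 to 76.0 and 139.8 to 182 at the 2 ages. The most abundant was DAZL in Ha, ZBTB16 in La and DDX4 in Hb and Lb. DDX4 alone had 4.0 to 7.83 FPKM at 30 days and 96.8 to 145.6 at 120 days, most of the sum there.

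More markers of somatic cells were called lower than higher at 120 days. In Ha vs Hb and La vs Lb the calls were 4 and 4 of 8 Sertoli cell markers, 4 and 5 of 7 Leydig cell markers, 5 and 3 of 5 endothelial, 5 and 4 of 5 macrophage and 2 and 0 of 2 blood markers, all lower. Of 10 peritubular and stromal markers 8 were lower in Ha vs Hb, and 5 lower and 1 higher in La vs Lb. The summed FPKM at 30 and at 120 days was 751 to 1770.5 and 181 to 385 for Sertoli cells (the most abundant INHA at 30 days and CLDN11 at 120 days), 949.8 to 1512 and 66.5 to 562 for peritubular and stromal cells (COL3A1, in Hb ACTA2), 78.3 to 98.0 and 13.9 to 45.7 for endothelial cells (VWF), 32.6 to 40.3 and 2.24 to 9.91 for macrophages (CSF1R, in Ha CD163) and 35.4 to 218 and 4.02 to 43.1 for blood (HBB). For Leydig cells (CYP17A1 at 30 days and INSL3 at 120 days) it was 5487, 5009 and 4883 in Ha, 7771, 5341 and 6281 in La, 2180.4, 189 and 128 in Hb, and 2708, 4057 and 1712 in Lb. Hb1 stood above Hb2 and Hb3. At 120 days 5 of the 10 peritubular and stromal markers were higher in Lb than in Hb, and at 30 days 4 of the 8 spermatocyte markers were lower and 3 of the 8 Sertoli cell markers higher in La than in Ha. The summed Sertoli cell FPKM at 30 days was 782, 751 and 973 in Ha and 1508, 1770.5 and 1632 in La, with no overlap. No marker was at 0 in all 12 libraries. The part of these cell types in the changes of the antisense lncRNAs was not tested.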

How the data were processed

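The authors deposited estimated count values for each lncRNA transcript and each coding gene and library, made from reads trimmed with fastp 0.18.0, cleared of ribosomal reads with Bowtie2 2.2.8, mapped with HISAT2 2.1.0 and assembled with StringTie 1.3.4, per the submitters' processing notes. The deposited FPKM values were computed by the authors with StringTie, scaled by transcript or gene length and library depth. The exon positions and class codes of the assembled lncRNAs are also as deposited by the authors. The tool that gave the estimated counts, its use of strand and the tool that gave the class codes are not given in the sources used here.

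Estimated counts were rounded and tested with edgeR 4.0.16 (quasi-likelihood, TMM scaling; R 4.3.3), separately for the lncRNA and mRNA tables, in the 6 libraries of each comparison, after filterByExpr with a minimum count of 10. P-values were adjusted by the Benjamini-Hochberg method over all features tested and measure spread between animals. Calls need an adjusted p under 0.05 and a log2 fold change beyond 1. Bounds use a floor of 3 counts per library. The ratio of pairs was tested with limma 3.58.1 on log2 ratios with 1 added to both counts, and the interaction in all 12 libraries. DESeq2 1.42.0 served as an alternative, and tables were made with Python 3.11.15.

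The design asked for the facing gene by strand and exon. The gene table used, Sscrofa11.1, has spans only, so the facing gene is the gene of the mRNA table whose span holds most exonic bases of the lncRNA, and the arrangement assumes the opposite strand. The mRNA table has 21674 genes, of which 20666 have a gene identifier, and all 20666 matched. Transcripts were named by smallest adjusted p in each comparison and direction, highest mean FPKM, pairs called together, membership of a list, number of antisense transcripts at a locus and overlap length. The lists were cell type markers, genes handling antisense or double-stranded RNA, and GO terms. Members and lists were chosen with earlier results of these data known. The alternatives were DESeq2, limma on FPKM, scaling by the mRNA table, all 12 libraries together, replicate number as a block, each library left out, other added constants and longer overlaps. A restriction to lncRNAs over 1 annotated gene was added after seeing the data. The code was tested on simulated data.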

Additional observations from a re-analysis of the deposited data

How the results depend on the processing

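The 78 log2 fold changes of named lncRNAs were recomputed under 1092 alternatives. Their call and direction were kept in 1052, the call was lost in 40, and 0 gained a call or turned round. The counts of calls, which also rose under some alternatives, follow separately. The age counts of antisense lncRNAs ran from 178 to 194 in Ha vs Hb and 184 to 202 in La vs Lb with a library left out, against 178 and 183. Of the 178 and 183 calls, 130 and 133 were of transcripts with fewer than 10 counts in every 30-day library, which passed only through the older group. The calls of lower expression fell from 15 to 9 and from 21 to 13 when scaled by the mRNA table. The facing genes gave 82 to 94 (87) and 83 to 89 (89), and the ratio 135 to 140 (139) and 131 to 136 (135). The breed counts moved more. With a library left out, antisense lncRNAs called in Ha vs La ranged from 2 (without Ha1 or Ha2; 3 without any La library) to 7 (without Ha3), against 5. In Hb vs Lb they ranged from 1 (without Lb1 or Lb3; 2 without Lb2, 4 without Hb1, 6 without Hb2) to 9 (without Hb3), against 11, and were 29 with DESeq2 and 17 with limma on log2(FPKM + 0.1). Facing genes called in Ha vs La ranged from 2 (without La2) to 8 (without Ha3), against 4, and were 1 with limma on log2(FPKM + 1) and 1 with all 12 libraries fitted together. In Hb vs Lb they ranged from 0 (without Lb1 or Lb3; 1 without Hb3 or Lb2) to 6 (without Hb1), against 5, and were 10 with DESeq2, 9 with limma on log2(FPKM + 0.1), 11 with all 12 libraries and 3 with lncRNAs over 1 annotated gene. In La vs Lb limma on log2(FPKM + 1) called 55 facing genes. The ratio in Ha vs La ranged from 1 (without Ha1; 5, 4, 2 and 3 without Ha2, La1, La2 and La3) to 7 (without Ha3), against 8, and in Hb vs Lb from 10 to 19, against 15, with 23 on FPKM with 0.1 added to both. The interaction was called for 0 to 2 antisense lncRNAs with a library left out (2 without Ha3), and for 8 with DESeq2. The cause of these moves was not tested.

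Replicate numbers were also used as a block, although the libraries of a number come from different boars and are not pairs. After the group means were removed, libraries of the same number had correlations of −0.0365 to 0.0363 over lncRNAs and −0.0222 to 0.0527 over mRNAs, none above 0.1. With the block 1 antisense lncRNA was called between the breeds at 30 days (Ha vs La), and 0 antisense lncRNAs and 1 facing gene at 120 days (Hb vs Lb).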
